A study of Homo sapiens with 3 samples.

Results

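Plasminogen activators are the serine proteases that cut plasminogen to plasmin, the enzyme that dissolves fibrin and degrades matrix proteins, and the serpins are the suicide inhibitors that trap them. In a human melanoma line, 7 genes of this system were chosen by their symbols on the array: the activators PLAT and PLAU, the receptor PLAUR, and the serpins SERPINE2, SERPINI1, SERPINB2 and SERPINB8. They were read by 8 of the 41000 probes, among 16681 genes with a RefSeq mRNA accession. The line was 1205Lu, a metastatic line recovered from lung metastases that WM793 melanoma cells formed in mice. Total RNA came from 3 populations: the original monolayer (OM), kept 14 days in standard medium; the melanoma bodies (MB), attached 3-dimensional clusters detached after 14 days in human embryonic stem cell (hESC) medium; and the new monolayer (NM), grown from bodies over 10 days in standard medium following 14 days in hESC medium, with leftover bodies taken away. Each population was read on 1 array with 1 dye (Cy3), so that no difference below has a replicate culture and no p-value is given. The question for these genes was how the RNA of the cell's own system for plasmin formation differed between monolayer cells, bodies and the monolayer grown from bodies. Medium and growth form changed together, so that they cannot be told apart here. The arrays read RNA, and not protein or protease activity.

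PLAU encodes urokinase (uPA), which acts largely at the cell surface bound to its receptor, the GPI-anchored protein encoded by PLAUR. PLAT encodes tissue-type activator (tPA), which works best on fibrin and is also made by melanoma cells and neurons. SERPINE2 (protease nexin 1) inhibits thrombin, uPA and tPA, SERPINI1 (neuroserpin) inhibits chiefly tPA, SERPINB2 (PAI-2) inhibits uPA and tPA, and SERPINB8 is an intracellular serpin of the same clade as SERPINB2 with no established part in plasminogen activation. Inhibited complexes are taken up by receptors of the LDL receptor family.

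The probes are printed here because each gene other than SERPINB8 rested on 1 probe of 60 bases. Positions come from the array's own annotation, in hg17. The SERPINE2 probe lies on the minus strand at chr2:224666102-224667800, and since that span is 1699 bases the 60 bases cross an intron and read spliced mRNA. A second such probe is the dimmer of the SERPINB8 pair, on the plus strand at chr18:59798117-59799958, a span of 1842 bases. The SERPINI1 probe lies at chr3:168990910-168990969 (plus strand), the SERPINB2 probe at chr18:59721182-59721241 (plus strand) and the PLAUR probe at chr19:48861338-48861397 (minus strand). The sequences run 5′ to 3′ as printed on the array, all in lower case since no stretch was singled out.
SERPINE2: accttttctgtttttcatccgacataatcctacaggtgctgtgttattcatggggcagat
SERPINI1: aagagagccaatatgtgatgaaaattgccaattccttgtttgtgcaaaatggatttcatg
PLAUR: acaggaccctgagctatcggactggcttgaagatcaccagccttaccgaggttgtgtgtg
SERPINB8 (dimmer probe): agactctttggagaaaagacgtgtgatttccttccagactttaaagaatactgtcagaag

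The PLAT probe (chr8:42151969-42152028, minus strand), the PLAU probe (chr10:75347056-75347115, plus strand) and the brighter SERPINB8 probe (chr18:59805517-59805576, plus strand) are given by position only. PLAT and PLAU were each printed in 10 spots, the other 6 probes in 1 spot. Exons and UTRs under the probes were not analysed here.

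Signals are spot intensities in arbitrary units (a.u.), and every spot is either well above background or not by the scanner software's test. Of the 41000 probes, between 26516 and 29126 were well above background on an array. A ratio is given after dividing each array by its mean of GAPDH, ACTB and HSP90AA1 (the study names HSP90 without the gene, and HSP90AA1 has a probe printed in 10 spots), which differed little (factors of 1 for OM, 0.978 for MB and 0.877 for NM), and the median log2 ratio of all measured genes was then 0.14 for MB over OM, -0.03 for NM over MB and 0.12 for NM over OM. The technical SD of a ratio is taken from probes printed in 10 spots, and it leaves out any difference between cultures. The melanocyte lineage was represented by S100B, S100A1, SOX10 and MITF, with 7 of 9 lineage markers well above background on OM and MB and 6 on NM, while TYR and TYRP1, both enzymes of pigment synthesis, were not on any array. Markers of fibroblasts (4), endothelial cells (3), keratinocytes (3) and leukocytes (3) reached at most 390 a.u., for VWF on MB. Well above background on every array were VWF (endothelial), KRT14 (keratinocyte) and CD14 and CD3E (leukocyte), and on MB alone PECAM1 (endothelial) and DCN (fibroblast), while the other 7 of these 13 markers, PTPRC, CDH5, COL1A1 and COL3A1 among them, were not on any. In RNA of whole cultures, fewer cells expressing a gene and less of its RNA in each cell cannot be told apart.

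PLAT and its inhibitor SERPINE2 were each about 2-fold higher in the melanoma bodies than in the original monolayer, and both were lower again in the new monolayer. These were the only members past 2-fold between MB and OM, 2 of the 5 members with a signal above 100 a.u. on the brighter array, where 6.62% of all 11598 such genes passed in that direction. None was 2-fold lower (3.73% of all genes). In no comparison was a member counted past the 5-fold difference used in the study. The shares of all genes, either way, were 1.82% between MB and OM, 3.18% from MB to NM and 0.836% between the monolayers. For SERPINI1 from MB to NM a 5-fold difference was not settled, since its fold of 4.37 is a lower bound. From MB to NM, 3 of 5 members fell 2-fold or more, SERPINI1 with them, where 11.0% of 11627 genes did, and none was 2-fold higher (9.21%). This count was 2 under 6 of the alternatives, without PLAT or SERPINI1. Between the monolayers none of 4 members differed by 2-fold in either direction, where 4.60% of 11489 genes were higher and 3.00% lower. With so few members these counts describe the 7 genes and no more.

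The 10 PLAT spots read 68244 to 76979 a.u. on OM (median 74141), 139779 to 150962 on MB (median 144764) and 60438 to 66572 on NM (median 64714), before scaling. Every MB spot was above every spot of both monolayers, and after scaling the OM spots (68244 to 76979) and NM spots (68897 to 75890) covered the same range. The MB mean was 144259 ± 3368 a.u. (SD over 10 spots), against 73773 ± 2470 on OM and 64257 ± 1828 on NM. PLAT was therefore 2.00-fold higher in MB than OM (log2 ratio 1.00, technical SD 0.02). It fell by 1.01 on the log2 scale from MB to NM, and the NM signal was 0.993 times that of OM (log2 ratio -0.01, technical SD 0.02). Spots that do not overlap were common, found for 70.8% of 216 probes in 10 spots between MB and OM and for 82.8% of 215 between NM and MB. Of 12713 genes measured on both arrays, 5.98% had a higher MB over OM ratio than PLAT, and 9.57% of 12283 had a lower NM over MB ratio. PLAT stood at the 2-fold line, so its count there turned with the scaling, from 1.65-fold with the spike-in probes to 2.31-fold with quantile normalization, and its log2 ratio was 0.98 with HSP90AB1 in place of HSP90AA1.

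SERPINE2 read 63929, 135401 and 42529 a.u. in OM, MB and NM, each in 1 spot. The MB signal was the highest of the 3 and the NM signal the lowest. SERPINE2 was 2.17-fold higher in MB than OM (log2 ratio 1.12, technical SD 0.06) and 2.86-fold lower in NM than MB (log2 ratio -1.51, technical SD 0.07). Unlike PLAT, it ended below its starting level, at 0.758 times the OM signal in NM (log2 ratio -0.40, technical SD 0.07). Of all genes measured, 4.61% had a higher MB over OM ratio and 3.82% a lower NM over MB ratio. Its 2.17-fold difference became 1.79-fold with the spike-in probes, while its fall from MB to NM stayed past 2-fold under every one of 12 alternatives. The series value table and the mean of a gene's probes, both among the 12, could only return the reported value for this 1 probe.

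SERPINI1, the neuronal inhibitor of tPA, read 94.4, 142 and 26.5 a.u. in OM, MB and NM, the last of these not well above background. The order of the arrays was that of SERPINE2. MB exceeded OM by 1.54-fold (log2 ratio 0.62, technical SD 0.20), short of 2-fold, and 16.6% of genes had a higher ratio. Against the dimmest signal that counted as well above background on NM, 29.1 a.u., it was at least 4.37-fold lower in NM than MB and at least 2.84-fold lower than in OM. The second of these is not among the counts, since neither array read above 100 a.u. With normexp background correction, which raises dim signals, the log2 ratio was 0.36 for MB over OM, -0.96 for NM over MB and -0.60 for NM over OM. Scaling to the spike-in probes gave 0.34 for MB over OM, where no alternative exceeded the reported value.

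**Figure D1:**
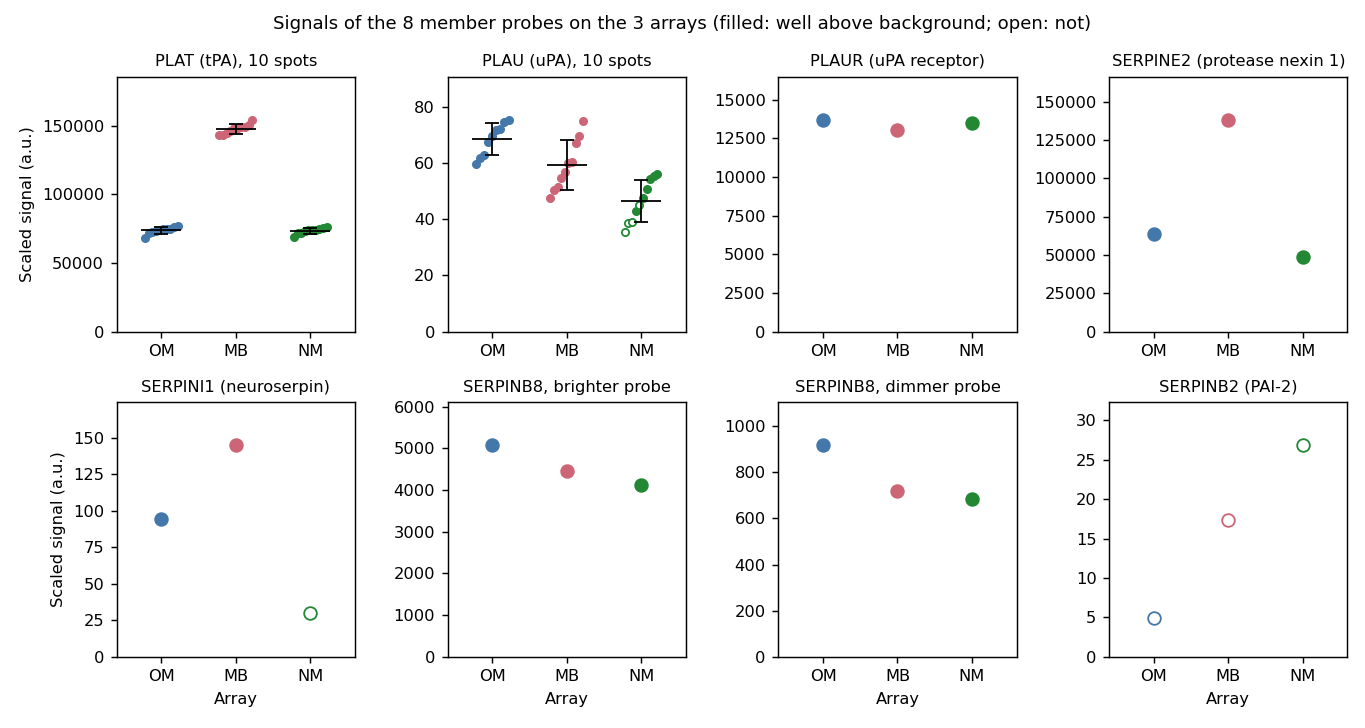
Signal of each of the 8 probes after scaling (vertical axes, a.u., each from 0) on the OM, MB and NM arrays (horizontal axes), 1 point a spot, filled where the spot was well above background and open where not, with the mean and SD over spots for PLAT and PLAU. PLAT, SERPINE2 and SERPINI1 were highest on MB, PLAUR differed little, and no spot of SERPINB2 is filled.

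Urokinase was close to background. The 10 PLAU spots read 59.9 to 75.7 a.u. on OM (median 69.8 over 9 spots), 46.4 to 73.3 on MB (median 57.2) and 31.2 to 49.3 on NM (median 40.6), where only 6 of 10 spots were well above background. After scaling, the OM and MB spots overlapped and the NM spots (35.6 to 56.2 a.u.) lay below all of the OM spots. The means were 68.6 ± 5.76 a.u. on OM (SD over 9 spots), 58.0 ± 8.75 on MB and 40.9 ± 6.59 on NM. PLAU was lower in MB than OM by a log2 ratio of -0.21 (technical SD 0.10) and lower in NM than OM by -0.56 (technical SD 0.08), a ratio of 0.679, and 8.44% of 12309 genes had a lower one. Non-overlapping spots between NM and OM were seen for 73.6% of 216 probes. The tenth OM spot, at 132 a.u., was left out as an outlier by the scanner software. Normexp correction shrank the NM over OM ratio to -0.12.

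The urokinase receptor was well above background on every array and differed little between populations. PLAUR read 13710, 12762 and 11850 a.u. in OM, MB and NM. After scaling, its log2 ratio was -0.07 for MB over OM, 0.05 for NM over MB and -0.02 for NM over OM, each with a technical SD of 0.06 to 0.07. The signs of the NM over MB and NM over OM ratios turned with the scaling, between -0.11 and 0.19 for the first and between -0.21 and 0.05 for the second.

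The remaining serpins are both of clade B. SERPINB2 stayed at background in all 3 populations (4.98, 16.9 and 23.6 a.u. in OM, MB and NM), so no fold is given. SERPINB8 read 5085, 4348 and 3622 a.u. on OM, MB and NM with the brighter of its probes and 919, 703 and 601 a.u. with the dimmer. Both probes were highest on OM. The brighter probe gave log2 ratios of -0.19 (MB over OM), -0.11 for NM over MB and -0.30 for NM over OM, and the dimmer -0.35, -0.07 and -0.42. The NM over MB ratio of the brighter probe changed sign with spike-in scaling (0.03) and with 75th percentile scaling (0.006).

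**Figure D2:**
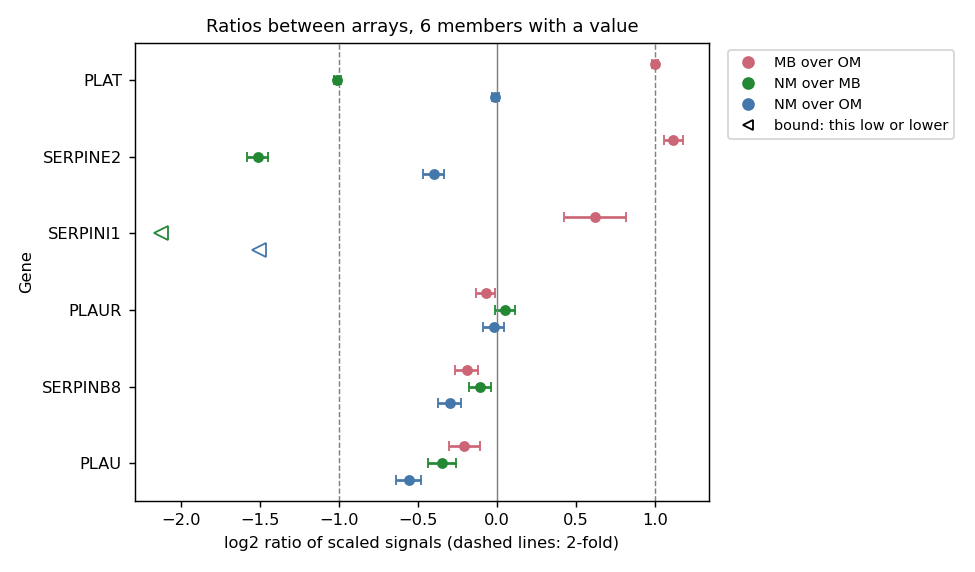
Log2 ratio of scaled signals (horizontal axis) for the 6 genes with a value, in MB over OM, NM over MB and NM over OM, with bars of 1 technical SD over spots, open triangles where NM was at background and the ratio is that low or lower, and dashed lines at 2-fold. PLAT and SERPINE2 lie at or past the right line for MB over OM, and PLAT, SERPINE2 and SERPINI1 past the left line for NM over MB, and no closed point for NM over OM reaches either line.

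Because a single factor per array cancels between genes of the same array, the balance of activator, receptor and inhibitor does not depend on which factor scaled the arrays. Relative to PLAUR, PLAT was 2.10-fold higher in MB than OM (log2 difference 1.07, technical SD 0.06) and SERPINE2 2.28-fold (1.19, technical SD 0.08). Relative to PLAU, PLAT was 2.31-fold higher (1.21, technical SD 0.10). That value does depend on background handling, since PLAU lay near background. The PLAU log2 ratio for MB over OM was -0.21 as reported, -0.06 with normexp and -0.08 with no background subtraction. SERPINE2 and PLAT themselves changed by nearly the same factor between OM and MB, with a difference of 0.12 (technical SD 0.06). From MB to NM they parted: SERPINE2 fell further than PLAT, by a log2 difference of -0.50 (technical SD 0.07), and the SERPINE2 to PLAT ratio of NM was 0.764 times that of OM (-0.39, technical SD 0.07). Such ratios show unequal change of the pair, and the technical SD covers spots only.

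In the other 46 genes listed for the plasminogen system, 27 had a signal above 100 a.u. on the brighter array between MB and OM. Of these, 2 were 2-fold or more higher in MB and 3 lower, from MB to NM 7 of 27 were higher and 4 lower, and between NM and OM 5 of 26 were higher and 2 lower. The background shares for these 6 counts are 6.62%, 3.73%, 9.21%, 11.0%, 4.60% and 3.00%. The list's median log2 ratio over measured genes was 0.03 for MB over OM (29 genes), 0.20 for NM over MB (27) and 0.46 for NM over OM (27). Of the 46 genes, 15 were not well above background on any array by their brightest probe.

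Inhibitors of plasmin and its activators included the listed genes with the highest MB over OM ratios. A2M (alpha-2-macroglobulin, a broad trap for proteases, plasmin included) read 37010, 391335 and 69966 a.u. in OM, MB and NM, 10.8-fold higher in MB than OM (log2 ratio 3.44) and 5.02-fold lower in NM than MB. Its relative PZP, read in 1 spot, was not well above background on OM and NM and read 142 a.u. on MB, at least 6.96-fold higher than on OM, a bound that became a log2 ratio of 1.53 with normexp correction. SERPIND1 (heparin cofactor II, an inhibitor of thrombin) was highest on OM, at 1276 a.u., with 489 on MB and 531 on NM, a log2 ratio of -1.35 for MB over OM. SERPINF2, the gene of alpha-2-antiplasmin, was at background in all 3 populations.

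PLG, the gene of plasminogen itself, had 4 probes. The brightest, in 1 spot, read 147, 163 and 96.0 a.u. on OM, MB and NM, well above background on each. No other PLG probe was well above background on both arrays of any comparison. F12, the gene of coagulation factor XII, read 4637, 5699 and 5772 a.u. The genes that follow encode proteins that hold plasminogen or tPA at the cell surface. ANXA2 (annexin A2) read 398335, 250450 and 356853 a.u. in OM, MB and NM, with MB 1.55-fold below OM. Its partner S100A10 read 37617, 56097 and 54647 a.u., with MB 1.53-fold above OM. PLGRKT, a plasminogen receptor named C9orf46 on the array, read 4938, 2742 and 8069 a.u. in OM, MB and NM, and was 3.28-fold higher in NM than MB. ENO1 stayed within a factor of 1.15 in all 3 comparisons.

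Among uptake receptors and partners of PLAUR, VLDLR, which takes up serpin-bound activators, moved against PLAT and SERPINE2. It read 657, 190 and 1415 a.u. in OM, MB and NM, 3.39-fold lower in MB than OM (log2 ratio -1.76) and 8.31-fold higher in NM than MB (3.06). LRP1, the best known receptor for such complexes, read 604, 621 and 597 a.u. and differed by at most 1.13-fold. EGFR, a signalling partner of PLAUR, read 596, 396 and 2062 a.u. in OM, MB and NM, 5.80-fold higher in NM than MB. ITGB1 read 234007, 233875 and 284405 a.u. Integrin subunits went both ways from MB to NM: ITGB5 was 3.51-fold and ITGA3 2.55-fold lower, while ITGA5 was 2.13-fold and ITGAV 2.09-fold higher. The dimmer ITGAV probe gave a log2 ratio of 0.87 there, short of 2-fold.

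**Figure D3:**
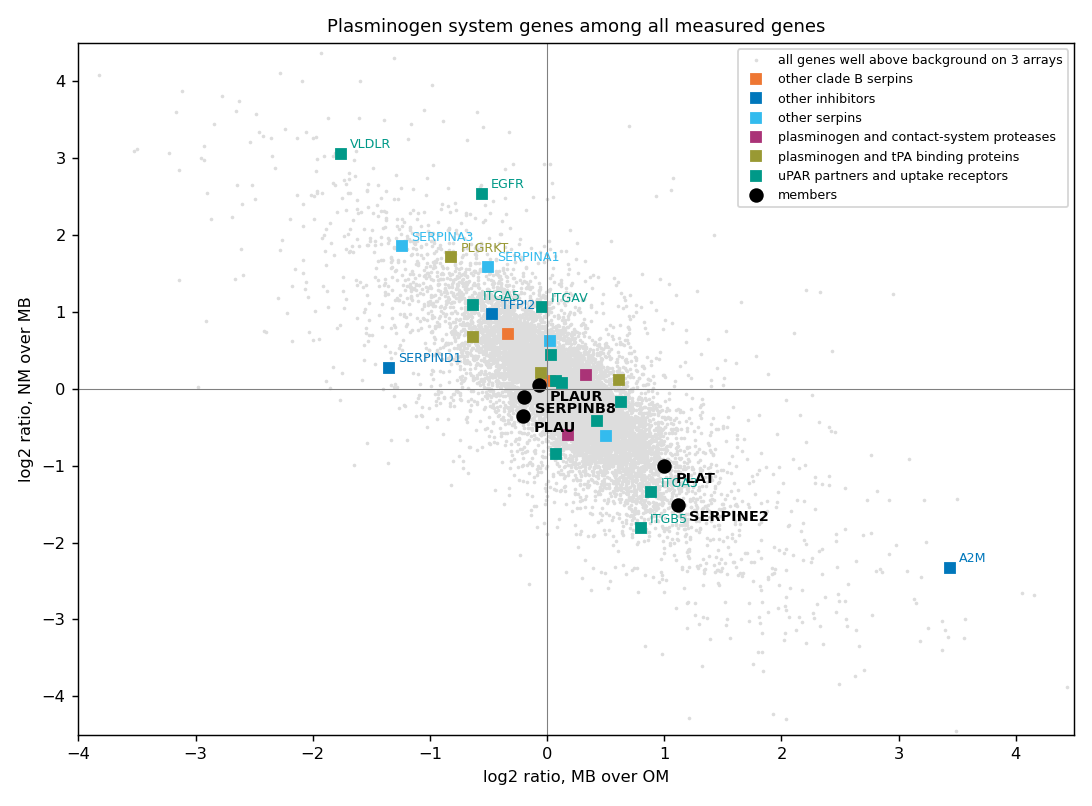
Log2 ratio of MB over OM (horizontal axis) against NM over MB (vertical axis) for 12241 genes well above background on all 3 arrays (grey, with 18 outside the axes), 27 of the listed genes coloured by role and 5 members in black. The axes share the MB array, so a slope among the grey points is built in; PLAT and SERPINE2 lie at the lower right near ITGA3 and ITGB5, with A2M farther out and VLDLR and EGFR at the upper left.

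Other serpins gave a mixed picture. SERPINA3 (antichymotrypsin) read 88226, 36616 and 119016 a.u. in OM, MB and NM, so that MB was 2.36-fold below OM and 3.62-fold below NM, opposite in order to SERPINE2. SERPINA1 (antitrypsin) read 120, 82.6 and 223 a.u. Of the 11 other clade B genes, 9 were not well above background on any array by their brightest probe, like SERPINB2. Among them SERPINB9 had 3 probes, and a dimmer one was well above background on OM. SERPINB1 read 7996, 6199 and 9102 a.u. in OM, MB and NM.

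Genes with the nearest pattern over the 3 arrays were found by the distance between their pairs of log2 ratios to OM. For SERPINE2 these were ZNF234 and USP38, and 1.25% of 12240 genes lay within 0.25. For PLAT they were ADNP and PPP3R1 (2.35% within 0.25), for PLAU HDGF2 and OAT, for SERPINB8 ALS2CR4 and ERRFI1, and for PLAUR PHPT1 and PARVA (13.6% within 0.25). With 3 arrays many genes share any such pattern. Of the 9 lineage markers, 7 were well above background on at least 1 array. Before scaling, SOX10, S100B and S100A1 had the order of SERPINE2, with MB highest and NM lowest. MLANA was also highest on MB (31.3, 39.5 and 26.5 a.u. in OM, MB and NM). It was not well above background on NM, so its lowest array was not settled. MITF was highest on MB with NM above OM, and SILV and DCT were lowest on MB. S100B read 25155, 43760 and 13307 a.u. in OM, MB and NM and made up most of the list's sum of 34978, 60120 and 20778 a.u., while SILV read 286, 209 and 271 a.u. and DCT 66.7, 62.8 and 64.1 a.u. Of the 3 endothelial markers, VWF (185, 390 and 95.6 a.u.) had the order of SERPINE2, PECAM1 was well above background on MB alone (87.7 a.u.) and CDH5 on no array, and their sums were 202, 486 and 115 a.u. Of the 3 keratinocyte markers, KRT14 (213, 373 and 118 a.u.) had that order and KRT5 and KRT1 were at background, with sums of 233, 381 and 130 a.u. The part of these markers in the SERPINE2 and PLAT values was not tested.

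SERPINE2 has 2 start sites in the RefSeq table (GRCh38.p14), and the 250 bases before the downstream one are shown because they hold an uncommon run of E-boxes, the sites of helix-loop-helix factors such as MITF. The motifs searched, on both strands, were chosen with this sequence in view. In capitals are 5 copies of CATGTG (or its complement CACATG) and 1 of CACGTG, the last at 87 bases before the start, in the window chr2:224031479-224031728 (minus strand):
SERPINE2: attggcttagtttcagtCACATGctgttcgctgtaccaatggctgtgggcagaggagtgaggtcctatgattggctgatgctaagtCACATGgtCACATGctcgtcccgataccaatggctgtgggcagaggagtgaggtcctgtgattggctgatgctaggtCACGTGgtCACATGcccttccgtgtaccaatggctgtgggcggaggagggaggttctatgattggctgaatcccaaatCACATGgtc
As many copies of CATGTG occurred in 4 of 35116 such windows (0.0114%), and 9.42% held at least 1. CACGTG occurred in 6.34%. The window is itself repetitive, with a run of 33 bases present in 2 copies 77 bases apart. A core of 17 bases is present in 3 copies at steps of 77 bases, so the sites are not independent. The 250 bases before the other start held no match to either E-box. Which of the 2 starts these cells used was not measured. SERPINB2 had 2 copies of CATGTG, a number met in 1.15% of windows, and PLAU, PLAUR, SERPINI1 and SERPINB8 had none.

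The AP-1 motif TGANTCA, found in 6.57% of windows, occurred once before the starts of PLAUR and SERPINB2 and in 2 copies before SERPINB8, a number met in 0.402%. Any middle base was allowed. The SERPINB2 match and the SERPINB8 match at 185 bases before the start read TGAATCA, and the others TGAGTCA. The CRE motif TGACGTCA (1.65% of windows) and GGGNNTTCC (5.78%), a short form of the NF-kB site, were found before no start of these 6 genes. Other forms of the NF-kB site were not searched, so their absence is not shown. A match is a description of the letters in the window, and no binding was measured. PLAT was left out of the search.

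**Figure D4:**
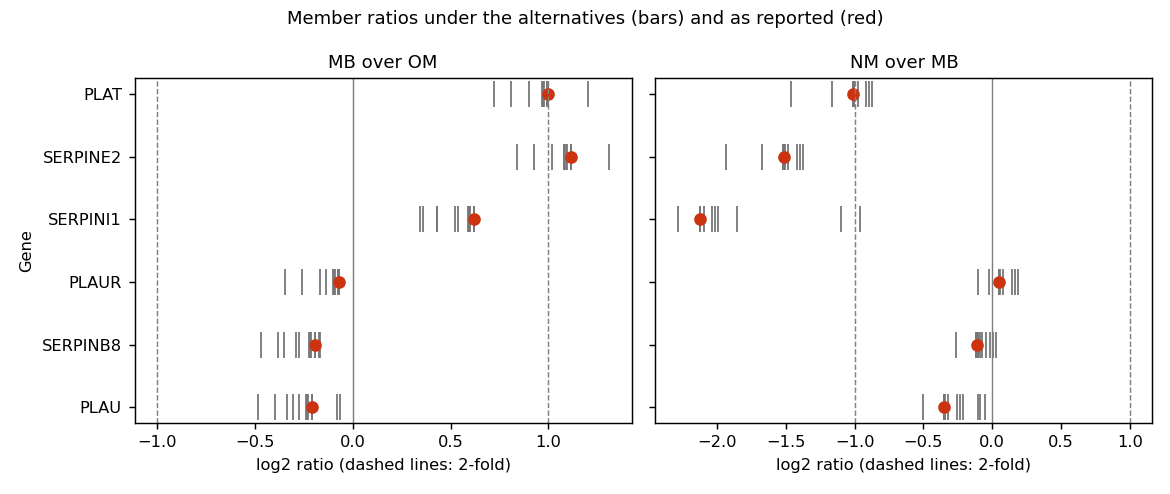
Log2 ratio of each member with a value (horizontal axes) for MB over OM (left) and NM over MB (right), as reported (red) and under 12 alternatives of scaling, background and spot handling (grey bars), with dashed lines at 2-fold. PLAT straddles the line on both sides, SERPINE2 stays past it from MB to NM, and PLAUR and SERPINB8 cross 0 for NM over MB.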

How the data were processed

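Total RNA of 3 populations of 1205Lu cells was hybridised to 3 one-colour arrays on 1 slide. The intensity values the authors deposited are spot signals from Agilent Feature Extraction (version 9.5.3.1), with the background subtracted, in a.u. on a linear scale, and probe positions are in hg17. The series value table holds the same intensity values the authors deposited in the scanner files.

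Control spots and 77, 79 and 81 outlier spots of the OM, MB and NM arrays were dropped. Replicate spots were averaged per probe, and signals were scaled to the mean of 3 housekeeping genes on the same array. A gene was represented by its probe with the highest mean signal. A gene counted as past 2-fold or 5-fold where the brighter array read above 100 a.u. before scaling. A signal not well above background was replaced by the higher of itself and the lowest signal that passed on the same array (20.9, 19.4 and 29.1 a.u. for OM, MB and NM), and the fold is then a lower bound. No test across samples was run, since the number of arrays (1 per population) limits the precision.

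The members, the gene lists, the rule for named genes and the alternatives were chosen with earlier results of these data known. Named genes were all members, listed genes past 2-fold in any comparison and the brightest of a role. PLG, ENO1, S100A10, LRP1, SERPINB1 and SERPINF2 were named after their values were seen. All 7 members and 45 of 46 listed genes matched the RefSeq table by symbol, and 1 by synonym. A further listed gene is not reported here. On simulated arrays for MB over OM (41000 probes, 200 changed), 50 of 50 probes changed 3-fold were called and 0 unchanged ones. The simulated arrays had little noise, no difference between cultures and no dim probes among the changed ones. Their outcome was thus set in advance, and they check only the arithmetic of the counting rule. Normexp used limma 3.58.1 in R 4.3.3 with an offset of 50. Other steps used Python 3.11.15, numpy 2.4.6, pandas 2.3.3 and matplotlib 3.10.9.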

Additional observations from a re-analysis of the deposited data

How the results depend on the processing

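No paired analysis was possible because each population has 1 array, and for the same reason no replicate could be left out. The count of members past 2-fold between MB and OM was 2 as reported. It was 0 with scaling to the 75th percentile or to 8 spike-in probes, and 1 with no scaling, the median log2 ratio set to 0, the geometric mean of the housekeeping genes, normexp, no background subtraction, outlier spots kept or, chosen after seeing the data, HSP90AB1 in place of HSP90AA1; PLAT at 2.00-fold was the first to be lost. Scaling shifts all genes together: over all probes the median MB over OM log2 ratio was 0.10 as reported, -0.09 with the 75th percentile and -0.18 with the spike-ins. From MB to NM the count of 3 became 2 with the 75th percentile, the median set to 0, the geometric mean and the spike-ins (PLAT past 2-fold in 8 of 12 alternatives), with normexp, and where both arrays had to be well above background. Between NM and OM the count was 0, and 1 (SERPINI1, lower) where the brighter array had to be well above background and not above 100 a.u. At 1.5-fold, a threshold chosen after seeing the data, 3 members were higher in MB than OM. Of 18 gene and comparison pairs, 14 kept their sign under all 12 alternatives. The exceptions were PLAUR from MB to NM and from OM to NM, SERPINB8 from MB to NM and PLAT from OM to NM. None of these 4 reached 2-fold. Among the 12, the series value table could only return the reported values. So could the mean of a gene's probes, except for SERPINB8, and neither adds support to the counts over 12 alternatives. Dim signals set the limit for PLAU, SERPINI1 and SERPINB2, which lie near background.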
